A study of Mus musculus with 6 samples.

Results

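Collagen chain genes encode the polypeptides that assemble into the collagens, and they are described here in alveolar macrophages from saline-treated and bleomycin-treated mouse lungs. Every gene whose symbol is Col, a number, a, and a number was taken, which gave 39 of the 22962 genes with a value. C57BL/6 mice received saline or bleomycin through the trachea, and cells were washed from their lungs by bronchoalveolar lavage at 2 weeks. Both groups are of the same strain and no other allele or agent is named. Bleomycin damages DNA and is a standard agent for producing lung fibrosis in mice. The lavage cells were put on plastic for a short time, and RNA came from those that stuck, so plating and washing were the only steps that selected macrophages. Saline replicates 1, 2 and 3 and bleomycin replicates 1, 2 and 5 make 3 libraries a group, and values are given in that order. The labels do not say whether each library came from its own mouse, and p-values therefore describe only how far these libraries spread, which may be technical.

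A collagen is 3 chains wound around one another, and each chain carries long stretches in which glycine recurs at regular steps. Type I, type III and type V collagens form the fibrils that accumulate in a scarred lung, type IV forms the sheet of basement membranes, type VI forms beaded filaments around cells, and the FACIT chains (fibril-associated collagens with interrupted helices) sit on fibrils. Fibroblasts are the textbook source of the fibrillar collagens, while type IV chains also come from epithelium and endothelium. Macrophages are better known for taking up and degrading collagen than for making it.

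The glycine repeat is shown for 3 chains described below, because it is the feature the family shares beyond its name. Each stretch is the first 45 bases of the longest run in that gene's longest coding transcript (GENCODE M21, coding strand), and capitals mark the glycine codon GGN that opens each unit of 9 bases.
Col1a1: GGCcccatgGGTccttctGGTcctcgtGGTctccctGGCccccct
Col4a1: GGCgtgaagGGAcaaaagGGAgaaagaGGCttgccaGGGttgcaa
Col15a1: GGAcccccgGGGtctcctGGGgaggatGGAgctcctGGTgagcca
The run held 338 units in Col1a1, 40 in Col4a1 and 30 in Col15a1. Among the other fibrillar chains that were tested, Col27a1 had a run of 217 units and the rest had 338 to 344. The tested type VI chains had runs of 45 to 87 units, and Col12a1, Col14a1 and Col20a1 had runs of 32 units each.

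Values are normalized read counts, which are reads divided by 1 size factor per library, and libraries held 27654799 to 37147983 reads. A gene was tested if its value was at least 10 in at least 3 libraries, and 20 chains passed out of 13512 genes tested. Of those 20 chains, 8 were at 10 or more in every saline library, 8 in some, and 4 (Col5a1, Col6a1, Col12a1 and Col27a1) only in bleomycin libraries. A chain that passes only through bleomycin libraries had to be higher there, so the counts below describe the chains that passed and not the family. Changes are limma estimates of log2(value + 1), bleomycin against saline, given ± SE, and a gene was called at an adjusted p under 0.05.

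Collagen chains made up a small part of the RNA in both groups and a larger part after bleomycin. In saline replicates 1, 2 and 3 they took 45.9, 43.6 and 45.4 RPM (reads for every 1000000 reads of the library). In bleomycin replicates 1, 2 and 5 they took 65.1, 53.7 and 70.8. The 95% exact binomial interval, which covers counting error only, was 43.5 to 48.4 for saline replicate 1 and 51.1 to 56.4 for the lowest bleomycin library. The number of chains with at least 1 read was 21 to 25 in saline and 33 to 36 in bleomycin libraries.

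Among the 20 tested chains 8 rose and 1 fell, while 9.76% of all tested genes rose and 3.9% fell (13.7% in either direction). Those shares come from 1319 higher and 527 lower genes, which were 1114 and 752 with quantile normalization. The chains that rose were Col3a1 and Col5a1 of the fibrillar collagens, Col4a1 and Col4a2 of basement membrane, Col6a1 and Col6a3 of type VI, and the FACIT chains Col12a1 and Col14a1. Col15a1 fell. The median log2 change of the 20 chains was 2.23, against -0.01 over all tested genes, and 15 of the 20 had an unadjusted p under 0.05. Of the chains that rose, only Col4a2 and Col14a1 would have been tested on saline values alone. The filter therefore favoured a rise in these counts and in the median. Counting all 39 chains, 20 had every bleomycin value above every saline value and 1 had every bleomycin value below, against 14.5% and 9.06% of all genes. The 20 include Col4a6, whose groups were apart only by the scaling of 1 read against 1. Of the 20 tested chains 14 lay wholly above and 1 wholly below, against 17.2% and 13.6% of all tested genes.

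**Figure D1:**
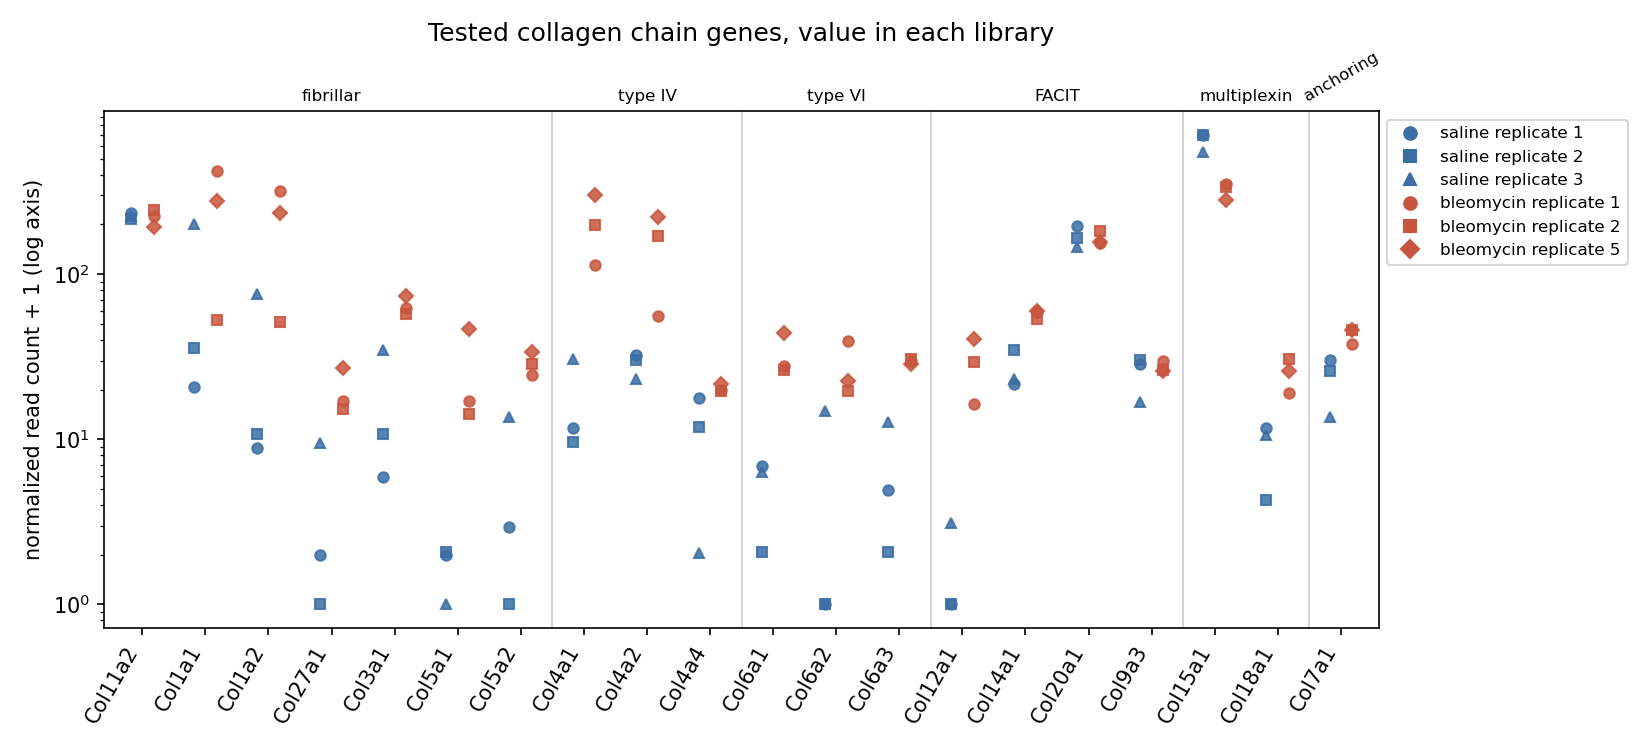
Normalized read count plus 1 on a log axis for the 20 tested chains in each of the 6 libraries, grouped by collagen family; each point is 1 library. Col15a1, Col11a2 and Col20a1 have the highest means over the saline libraries, and saline replicate 3 lies above the other saline libraries for Col1a1, Col1a2 and Col3a1.

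In saline the family was represented mainly by 3 chains that are not the classic scar collagens. Col15a1, a multiplexin of basement membrane zones, Col11a2, a fibrillar chain best known from cartilage, and Col20a1, a FACIT chain, together supplied 83.8%, 81.9% and 65.4% of the chain reads in the saline libraries. Their share was 35.2%, 44.8% and 27.7% after bleomycin. Per kilobase of longest coding transcript, Col15a1 had a mean of 125 in saline, Col11a2 had 37.1, Col20a1 had 33.6 and Col1a1 had 14.3. On the same scale Col4a2 had 4.29 and Col3a1 had 2.91 in saline.

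Col15a1 (ENSMUSG00000028339, GRCm38 chromosome 4, 47208161 to 47313167, plus strand) had values of 697, 695 and 548 in the saline libraries. It had 352, 338 and 280.1 after bleomycin, so every bleomycin library lay below every saline library. It fell 1.99-fold (95% interval of the log2 change -1.37 to -0.62, limma adjusted p = 0.00492), with means of 647 ± 85.4 and 324 ± 38.2 (SD, n = 3). The call held in all 20 alternative analyses, with adjusted p between 1.8e-06 and 0.0333. Per kilobase Col15a1 had a mean of 62.6 after bleomycin and remained the highest of the 39 chains. Of 12 macrophage markers, all with reads in every library, Siglecf and Chil3, markers of resident alveolar macrophages, fell beside it. Siglecf went from 14580 ± 1790 to 7713 ± 477 (1.88-fold lower, limma adjusted p = 0.00194, called in all 20 alternatives) and Chil3 from 402547 ± 83968 to 221981 ± 42535 (1.81-fold lower, 0.0388, with the call lost in 9 of the 20, with 0.104 to 0.204 when saline replicate 1, saline replicate 3, bleomycin replicate 2 or bleomycin replicate 5 was left out). Pparg, Mrc1, Marco, Itgax and the remaining markers did not pass, apart from Lyz2, which rose (adjusted p = 0.02, and 0.06 to 0.108 without saline replicate 1 or bleomycin replicate 2 or 5). The part of resident macrophages in the fall of Col15a1 was not tested.

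Col11a2 and Col20a1, the chains with the next highest saline means, did not pass the test. Col11a2 had values of 234, 214 and 225 in the saline libraries. It had 225, 245 and 191 after bleomycin, and the groups overlapped. Its change was -0.03 ± 0.17 (95% interval -0.42 to 0.36, limma adjusted p = 0.94). Col20a1 had 196, 165 and 144 in saline and 154, 181 and 156 after bleomycin. Its change was -0.03 ± 0.19 (95% interval -0.48 to 0.41, limma adjusted p = 0.942), and the sign of both small changes turned in some alternatives. Col9a3, a FACIT chain best known from cartilage, had 27.5, 29.3 and 15.9 in saline and 28.7, 25.3 and 25 after bleomycin, with a change of 0.16 ± 0.36 (adjusted p = 0.84) that was -0.28 with quantile normalization. Exons of Col9a3 overlap those of Tcfl5 on the other strand over 6.07% of their length.

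The type I chains, which form the main scar collagen, varied widely within both groups. Col1a1 (ENSMUSG00000001506, chromosome 11, 94936224 to 94953042, plus strand) had 19.6, 34.8 and 200.4 in the saline libraries. It had 419.5, 51.6 and 275 after bleomycin. Saline replicate 3 lay above bleomycin replicate 2, and the change of 1.79 ± 0.94 did not pass (95% interval -0.37 to 3.94, limma adjusted p = 0.289).

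Col1a2, the partner chain of Col1a1, had 7.84, 9.78 and 75.3 in saline and 316, 50.5 and 234 after bleomycin. The same pair of libraries overlapped, and the change was 3.02 ± 0.91 (limma adjusted p = 0.0643). Col1a2 passed without saline replicate 3 (adjusted p = 0.0152) and without bleomycin replicate 2 (0.04). Col1a1 passed in neither case (0.0867 and 0.122). The type I chains together took 2.04%, 3.4% and 19.7% of the summed chain values in the saline libraries, and 35.4%, 5.99% and 22.5% after bleomycin.

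Col3a1 (ENSMUSG00000026043, chromosome 1, 45311538 to 45349706), the chain of type III collagen, had 4.9, 9.78 and 33.9 in saline libraries. It had 61.1, 56 and 72.4 in bleomycin libraries, all above saline. It rose by 2.29 ± 0.60 (limma adjusted p = 0.0374). The call rested on single libraries: without saline replicate 1 or 2 or any of the bleomycin replicates the adjusted p was 0.0763 to 0.151, and without saline replicate 3 it was 0.00473.

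Of the type V chains, which help start fibrils, only Col5a1 was near 0 in every saline library. Col5a1 had 0.981, 1.09 and 0 in the saline libraries, in the order of replicates 1, 2 and 3, and 16.2, 13.2 and 45.7 after bleomycin. That is 2 reads against 83 over the groups, 37.6 times as many after scaling (95% counting interval 10.1 to 316), and Col5a1 rose (limma adjusted p = 0.00695). Its exons overlap those of 2810430I11Rik and Gm13372 on the other strand over 2.5% of their length. Col5a2 had 1.96, 0 and 12.7 in saline and 23.4, 27.5 and 32.8 after bleomycin, with no overlap, and its change of 3.06 ± 0.87 had an adjusted p of 0.0521. Col27a1 had 0.981, 0 and 8.48 in saline and 16.2, 14.3 and 25.9 after bleomycin (2.85 ± 0.84, adjusted p = 0.0581). Without saline replicate 3 Col5a2 and Col27a1 passed (adjusted p = 0.00772 and 0.0104).

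Of 11 fibrillar chains 7 were tested and 2 rose, where 9.76% of all tested genes rose. The other 4 fibrillar chains had too few reads to test. Col24a1 had 0 reads in all saline libraries and 3.59, 13.2 and 12.9 in bleomycin libraries, at least 9.36-fold higher when saline is set to 3 reads for the group as a whole. Col5a3 had 0, 13 and 0 in saline and 2.69, 7.69 and 9.48 after bleomycin, with overlap. Col2a1 and Col11a1 stayed under 10 in every library.

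The basement membrane chains Col4a1 and Col4a2 rose, Col4a1 more firmly than any other chain by its adjusted p. Col4a1 and Col4a2 wind into 1 heterotrimer, and their genes start head to head. Col4a1 lies at chromosome 8, 11198423 to 11312826 on the minus strand, and Col4a2 at 11312805 to 11449287 on the plus strand. Their annotated exons share 22 bases at chr8:11312805-11312826 (GRCm38.p6, plus strand, RefSeq), shown because both chains rose.
Col4a1 and Col4a2 shared start: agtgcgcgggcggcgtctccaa
Reads from those bases could be given to either gene, since the strand setting of the counting is not given, but they are 0.295% of the exon length of Col4a1.

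Col4a1 had values of 10.8, 8.69 and 29.7 in the saline libraries. It had 113, 198 and 300.0 after bleomycin, so the lowest bleomycin library was above the highest saline one. It rose by 3.64 ± 0.51 (limma adjusted p = 0.00225), and it passed in all 20 alternatives with adjusted p of at most 0.0138. Per kilobase its mean was 2.48 in saline and 30.8 after bleomycin.

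Col4a2 had 31.4, 29.3 and 22.3 in saline and 54.8, 169 and 222 after bleomycin. It rose by 2.18 ± 0.49 (limma adjusted p = 0.0199). Without saline replicate 2, saline replicate 3, bleomycin replicate 2 or bleomycin replicate 5 its adjusted p was 0.0512 to 0.1. Bleomycin replicate 1 was the lowest bleomycin library for both chains, whereas it was the highest for the type I chains.

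The minor type IV chains Col4a3, Col4a4, Col4a5 and Col4a6 are known from kidney and lung alveolar basement membranes. Col4a4 had 16.7, 10.9 and 1.06 in saline and 18.9, 18.7 and 20.7 after bleomycin, with no overlap and a change that did not pass (1.43 ± 0.76, adjusted p = 0.294). Col4a3 was too low to test, with 0.981, 3.26 and 0 in saline and 7.19, 13.2 and 22.4 after bleomycin. Its exons overlap those of C430014B12Rik on the other strand over 5.65% of their length. Col4a5 had 1 saline read and 47 bleomycin reads, a scaled ratio of 42.6 (95% counting interval 7.28 to 1717). Col4a6 had 1 read against 11, a ratio of 9.96 (1.45 to 429). All 6 type IV chains had every bleomycin value above every saline value. For Col4a6 this set 1 read in saline replicate 1 (0.981) against 1 read in bleomycin replicate 2 (1.1), a gap due to scaling alone. The summed value of the 6 chains was 61.8, 52.2 and 53 in saline and 207, 412 and 592 after bleomycin.

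Type VI collagen is built from 1 Col6a1, 1 Col6a2 and 1 Col6a3 chain, and all 3 genes were low in saline. Col6a1 had 5.88, 1.09 and 5.3 in the saline libraries, in the order of replicates 1, 2 and 3, and 26.9, 25.3 and 43.1 after bleomycin. It rose by 2.83 ± 0.58 (limma adjusted p = 0.013), but without bleomycin replicate 5, with the tested genes kept, its adjusted p was 0.073. Col6a3 had 3.92, 1.09 and 11.7 in saline and 28.7, 29.7 and 27.6 after bleomycin. It rose by 2.55 ± 0.65 (adjusted p = 0.0342), but without any 1 library other than saline replicate 3 its adjusted p was 0.0563 to 0.142. Col6a2 had 0, 0 and 13.8 in saline and 38.6, 18.7 and 21.5 after bleomycin, and its change of 3.41 ± 1.03 had an adjusted p of 0.0639, which was 0.00372 without saline replicate 3. In each of the 3 bleomycin libraries the 3 genes lay within 18.7 to 43.1. Col6a4 and Col6a6 had at most 2 reads over either group.

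Of the 7 FACIT chains measured, 4 were tested and 2 rose, where 9.76% of all tested genes rose. Col12a1, which coats fibrils and is known from tissues under load, had 0, 0 and 2.12 in saline and 15.3, 28.6 and 39.7 after bleomycin. That is 2 reads against 89, a ratio of 40.3 (95% counting interval 10.8 to 338), and Col12a1 rose (limma adjusted p = 0.00473; at most 0.0355 in the 16 alternatives that could test it). Col14a1, another fibril-coating chain, had 20.6, 33.7 and 22.3 in saline and 58.4, 52.7 and 58.6 after bleomycin. It rose by 1.15 ± 0.30 (adjusted p = 0.0391). Leaving out saline replicate 1, saline replicate 3 or any bleomycin replicate gave 0.088 to 0.18 for Col14a1. Col16a1 had 0 reads in saline and 3.59, 15.4 and 18.1 after bleomycin, at least 11.8-fold higher on the same basis, and was too low to test. Col9a2 had 12.7, 7.61 and 6.36 in saline and 13.5, 8.79 and 3.45 after bleomycin.

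Col18a1, the other multiplexin, carries endostatin and belongs to vascular and epithelial basement membranes. It had 10.8, 3.26 and 9.54 in saline and 18, 29.7 and 25 after bleomycin. Its groups did not overlap, and its change of 1.61 ± 0.51 had an adjusted p of 0.0778. Col7a1, which forms the fibrils that anchor epithelium, had 29.4, 25 and 12.7 in saline and 36.8, 45 and 44.8 after bleomycin (0.96 ± 0.38, adjusted p = 0.151).

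**Figure D2:**
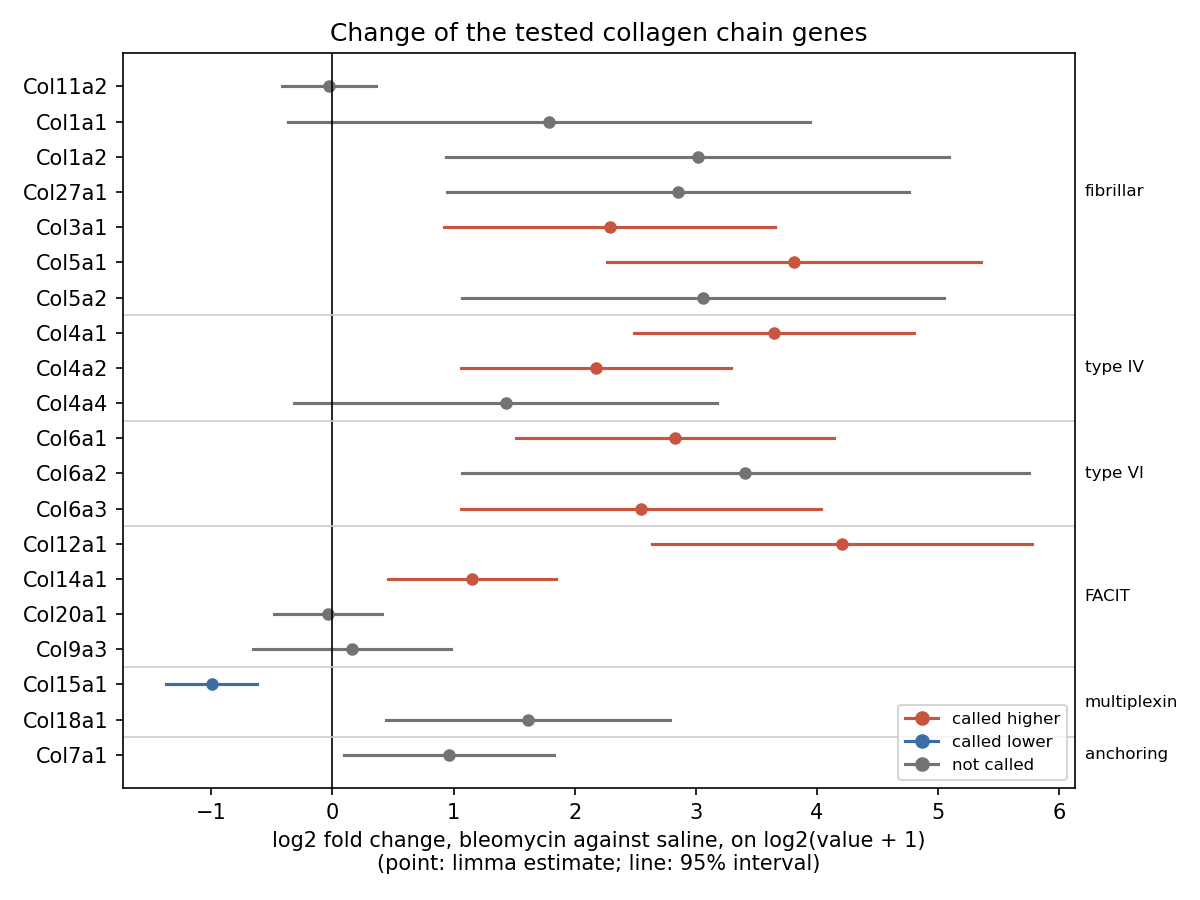
Limma log2 fold change (point) with its 95% interval (line) for each tested chain, bleomycin against saline on log2(value + 1), coloured by call. Col15a1 is the chain called lower, 8 chains are called higher, and the intervals of Col1a1, Col4a4, Col9a3, Col11a2 and Col20a1 cross 0.

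In all, 19 chains were too low to test. Of these, 7 reached 10 in at least 1 library and are given above except Col23a1, a transmembrane chain, which had 5.88, 14.1 and 0 in saline and 4.49, 7.69 and 7.76 after bleomycin. The other 12 stayed under 10 everywhere, with a highest value of 9.48 in Col8a2. At 0 in every saline library were 10 of the 19. In 6 of the 19 every bleomycin value was above every saline value, against 14.5% of all genes. They were Col4a3, Col4a5, Col16a1, Col17a1, Col24a1 and, by scaling alone, Col4a6. Col17a1, a hemidesmosome chain of epithelium, was among these at 0.898, 1.1 and 1.72 in bleomycin libraries, which is 4 reads in all.

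**Figure D3:**
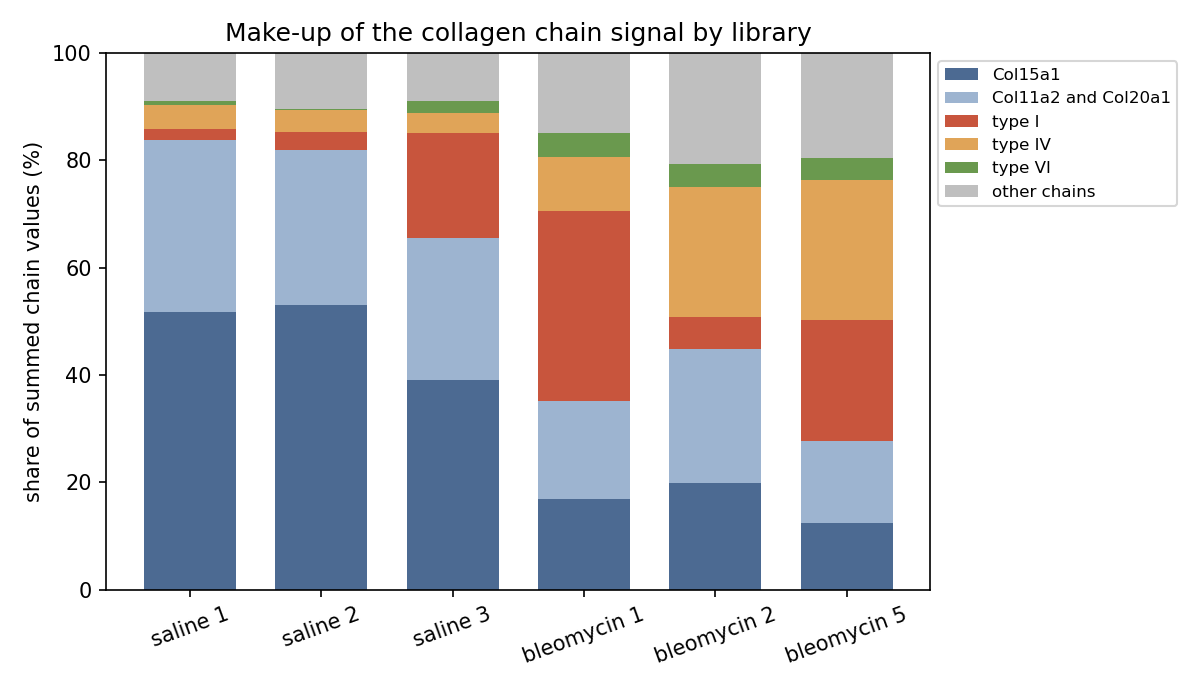
Share of the summed normalized values of all 39 chains, in percent, taken by Col15a1, by Col11a2 and Col20a1, by type I, by type IV, by type VI and by the other chains in each library. Col15a1 takes 39.1% to 53.0% in saline and 12.4% to 19.8% after bleomycin, and type I takes 5.99% in bleomycin replicate 2 but 35.4% in bleomycin replicate 1.

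Ratios between chains were compared within each library for 3 pairs chosen after their values were seen: the partner chains of type I and of type IV collagen, and Col1a1 with Col3a1, which belong to different collagens. Type I collagen is built mostly from 2 Col1a1 chains and 1 Col1a2 chain. Per transcript length the Col1a1 to Col1a2 ratio of reads was 2.25, 3.21 and 2.4 in the saline libraries. It was 1.2, 0.921 and 1.06 after bleomycin, so the groups did not overlap although the levels did. The exact two-sided permutation p was 0.1, the smallest that 3 libraries against 3 can give, and 0.3 adjusted over the 3 pairs. Saline replicates 1 and 2 rest on 8 and 9 reads of Col1a2, and their 95% counting intervals were 0.951 to 5.92 and 1.5 to 7.64. For saline replicate 3, with 71 reads of Col1a2, the interval was 1.82 to 3.2.

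The Col4a1 to Col4a2 ratio per length was 0.335, 0.289 and 1.3 in saline and 2.01, 1.14 and 1.32 after bleomycin (exact permutation p = 0.2, adjusted 0.3). Saline replicate 3 lay within the bleomycin values. The Col1a1 to Col3a1 ratio was 3.75, 3.34 and 5.54 in saline and 6.44, 0.865 and 3.56 after bleomycin (exact permutation p = 0.8). Bleomycin replicate 2 was alone in having fewer Col1a1 than Col3a1 reads per length.

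Sequence upstream of the gene starts is printed for 3 chains, Col15a1, which fell, and Col3a1 and Col5a1, fibrillar chains that rose. Each is the 250 bases before the RefSeq start on the plus strand of GRCm38.p6: chr4:47207762-47208011, chr1:45311288-45311537 and chr2:27886175-27886424. Capitals mark matches, on either strand, to TATAAA (the core of a TATA box), CCAAT or GGGCGG (a GC box); the motifs do not overlap here.
Col15a1: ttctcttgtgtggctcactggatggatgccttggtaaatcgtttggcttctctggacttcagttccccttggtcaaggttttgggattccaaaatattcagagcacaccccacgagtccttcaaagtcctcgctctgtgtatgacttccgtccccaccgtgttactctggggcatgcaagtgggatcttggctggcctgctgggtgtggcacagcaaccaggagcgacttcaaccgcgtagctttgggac
Col3a1: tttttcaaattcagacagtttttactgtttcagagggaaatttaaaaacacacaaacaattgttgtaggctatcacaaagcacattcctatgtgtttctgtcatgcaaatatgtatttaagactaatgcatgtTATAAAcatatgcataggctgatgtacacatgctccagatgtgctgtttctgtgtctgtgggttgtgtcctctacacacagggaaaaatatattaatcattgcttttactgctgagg
Col5a1: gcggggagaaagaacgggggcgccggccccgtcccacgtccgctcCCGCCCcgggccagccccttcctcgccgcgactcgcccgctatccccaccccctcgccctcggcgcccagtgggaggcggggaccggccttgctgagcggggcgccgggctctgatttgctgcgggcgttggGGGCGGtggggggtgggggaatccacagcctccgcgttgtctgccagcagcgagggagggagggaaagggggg
The Col15a1 stretch holds none of these letters, the Col3a1 stretch has TATAAA at -117, and the Col5a1 stretch has a GC box match at -205 and at -73. A RefSeq window of 300 bases, 250 before and 50 after a start, was found for 30 of the 39 chains (32 windows). GGGCGG was in 62.5% of the chain windows and 35.7% of all 32851 windows, CCAAT in 34.4% and 37.4%, and TATAAA in 15.6% and 13.6%. Of the 6 windows of chains that rose, 3 held GGGCGG, 2 CCAAT and 1 TATAAA. A match is a description of the letters, not a site.

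Most genes that process collagen did not pass the test. Of 16 tested genes for procollagen hydroxylation, folding and export 3 rose, and the median log2 change was 0.19, where 9.76% of all tested genes rose. Of the 21 genes measured, 9 had every bleomycin value above every saline value and 1 had every bleomycin value below. Over all genes these shares were 14.5% and 9.06%. P4ha2 below, and Bmp1 and Ddr1 of the next lists, were at 10 or more in bleomycin libraries only, so they could be tested only because they were higher there. Serpinh1, the collagen chaperone of the endoplasmic reticulum, had 16.7, 2.17 and 19.1 in saline and 60.2, 80.2 and 103 after bleomycin (2.95 ± 0.67, limma adjusted p = 0.0218). P4ha2, a prolyl hydroxylase subunit, had 0.981, 0 and 6.36 in saline and 17.1, 18.7 and 20.7 after bleomycin (3.02 ± 0.76, adjusted p = 0.0326). Crtap, part of the prolyl 3-hydroxylase complex, went from 656 ± 84.4 to 969 ± 42.8 (adjusted p = 0.0274). None of the 3 passed without bleomycin replicate 2 or without bleomycin replicate 5. P4hb, the abundant protein disulfide isomerase subunit of prolyl 4-hydroxylase, was at 24215 ± 1982 and 21992 ± 1517 (adjusted p = 0.534), Colgalt1, a collagen galactosyltransferase, at 13829 ± 1717 and 14109 ± 909 (0.906), and Plod3, a lysyl hydroxylase, at 10103 ± 699 and 8747 ± 447 (0.272).

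Of 4 tested genes for procollagen cleavage and cross-linking 1 rose and 1 fell, where 9.76% and 3.9% of all tested genes did. Bmp1, the C-propeptide protease, had 0, 0 and 4.24 in saline and 18.9, 47.2 and 26.7 after bleomycin (4.10 ± 0.77, limma adjusted p = 0.00907; 0.0567 without bleomycin replicate 2 with the tested genes kept). Adamts2, the N-propeptide protease, had 824, 645 and 719 in saline and 499, 496 and 438 after bleomycin, and fell by 0.61 ± 0.14 (adjusted p = 0.0253), and did not pass when saline replicate 1, saline replicate 3, bleomycin replicate 2 or bleomycin replicate 5 was left out. Among 6 tested collagen receptors and uptake genes 1 rose: Ddr1, a collagen-binding kinase, had 4.9, 1.09 and 0 in saline and 20.7, 36.3 and 42.2 after bleomycin (3.82 ± 0.71, adjusted p = 0.00861). Mrc1, the mannose receptor that takes up collagen, was at 53366 ± 9403 and 48088 ± 1065 (adjusted p = 0.644).

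Among 11 tested collagen-degrading genes 7 rose, with a median log2 change of 1.29 over the 11, and in all 7 every bleomycin value was above every saline value (9.76% and 17.2% of all tested genes). All 11 were at 10 or more in at least 1 saline library. Mmp2, a gelatinase, had 10.8, 38 and 30.8 in saline and 274, 270.3 and 525 after bleomycin (3.80 ± 0.47, limma adjusted p = 0.0013). Mmp8, a collagenase, went from 1208 ± 288 to 2912 ± 414 (adjusted p = 0.00236). Mmp14, a membrane-bound collagenase, had 126, 2019.8 and 191 in saline and 3665, 5557 and 6997 after bleomycin (3.83 ± 0.88, adjusted p = 0.0219). The lysosomal proteases Ctsl, Ctsb and Ctss went from 10446 ± 854 to 29324 ± 4201, from 70461 ± 4115 to 181459 ± 28317 and from 154868 ± 5284 to 366146 ± 19686. Ctsl shares exon sequence with Gm49230 on its own strand, so its level is uncertain, and Ctsb overlaps Fdft1 on the other strand over 12.8% of its exon length. Ctsk, a lysosomal collagenase, went from 25620.4 ± 1013 to 40698 ± 8824 (adjusted p = 0.0293). The Mmp14 and Ctsk calls were lost in 9 and 8 of 20 alternatives.

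**Figure D4:**
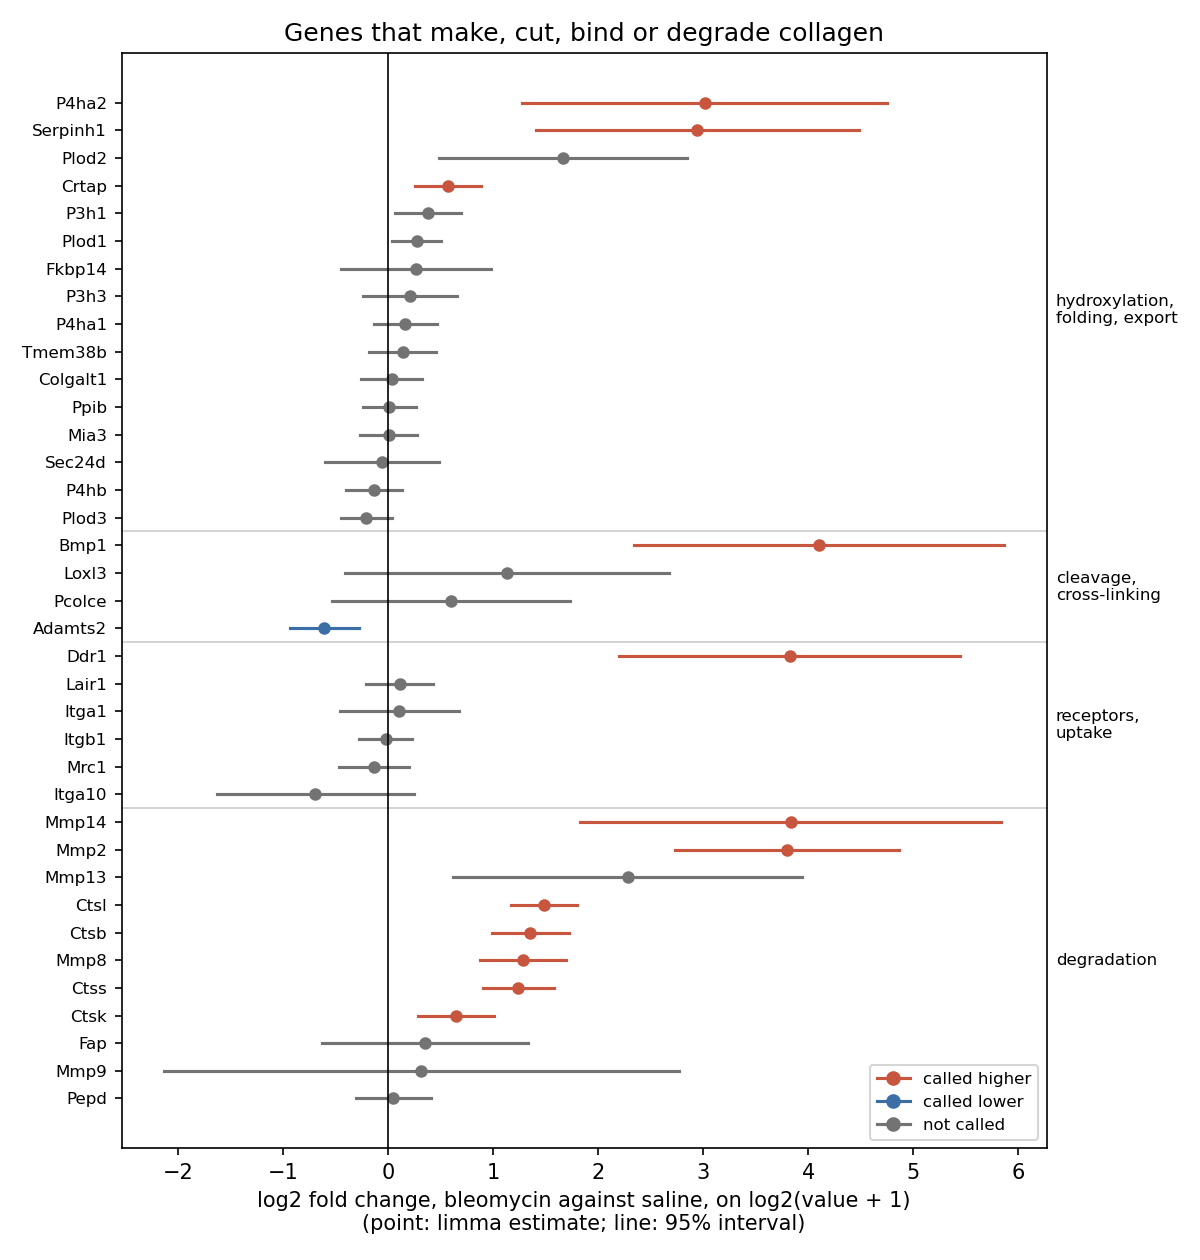
Limma log2 fold change with its 95% interval for the tested genes of procollagen processing, cross-linking, receptors and degradation, bleomycin against saline. Mmp2, Bmp1, Ddr1, Serpinh1 and P4ha2 lie at about 3 or above on the log2 axis, while the abundant processing genes P4hb and Colgalt1 lie near 0.

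Many markers of other cells were higher after bleomycin, and some were lower. In bulk RNA, more cells of a type and more RNA per cell cannot be told apart. Fibroblast markers other than collagens were low: with Acta2 left out, the summed value of 23 genes was 37.3, 38 and 91.2 in the saline libraries, in the order of replicates 1, 2 and 3, and 233, 285 and 446 after bleomycin. Acta2 itself was at 168 ± 48 and 132 ± 23.1. Of the 24 fibroblast markers measured, 14 had every bleomycin value above every saline value and 0 had every bleomycin value below, against 14.5% and 9.06% of all genes. Of 8 tested 3 rose (Thy1, Dcn and Eln), and these 3 were at 10 or more in bleomycin libraries only, so they had to be higher to be tested. Thy1 had 0.981, 2.17 and 0 in saline and 33.2, 91.2 and 136 after bleomycin. Trac of the T cell list had 7.84, 5.43 and 6.36 in saline and 29.6, 78 and 122 after bleomycin. The cells that gave the Thy1 reads were not tested. Eln did not pass when saline replicate 1 or saline replicate 3 was left out (limma adjusted p = 0.052 in both cases). Without bleomycin replicate 2 or 5, with the tested genes kept, its adjusted p was 0.111 and 0.124. It was 0.138 with quantile normalization and 0.231 with the replicate block.

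The 6 defining fibroblast markers (Pdgfra, Tcf21, Dpt, Lum, Dcn and Mfap4) summed to 3.92, 5.43 and 14.8 in saline and 66.5, 74.7 and 102 after bleomycin. Tcf21 and Lum were at 0 in all saline libraries, and they were at 1.8, 0 and 0 and at 0, 4.39 and 0.862 after bleomycin. Dcn, the decorin proteoglycan on collagen fibrils, was at 0, 0 and 9.54 in saline and 39.5, 43.9 and 75 after bleomycin (4.56 ± 0.90, limma adjusted p = 0.0114; 0.0555 without bleomycin replicate 5 with the tested genes kept). Fbn1 and Fbln1 encode fibrillin and fibulin, matrix proteins of fibroblasts. Saline replicate 3, the saline library with the highest type I, Col3a1, Col5a2, Col6a2 and Col6a3 values, was also the highest saline library for Dcn, Fbn1 (2.94, 1.09 and 38.2) and Fbln1 (0, 2.17 and 14.8). Over the whole list it was the highest saline library for 8 of the 24 markers and the lowest for 5, among them Pdgfra (2.94, 4.35 and 2.12) and Thy1 (0.981, 2.17 and 0). Saline replicate 1 was the highest for 4 and saline replicate 2 for 6.

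Bleomycin replicate 2, the lowest bleomycin library for the type I chains, had the lowest Fbn1 and Fbln1 values (24.2 and 0) but not the lowest Dcn. Over the 24 markers it was the lowest bleomycin library for 6 and the highest for 7, while bleomycin replicate 1 was the lowest for 8 and bleomycin replicate 5 for 6. The reads of Col1a1 per read of Dcn were 21 in saline replicate 3 and 10.6, 1.18 and 3.67 after bleomycin. Saline replicates 1 and 2 had 20 and 32 Col1a1 reads and no Dcn read. The part of fibroblast RNA in the chain values was not tested.

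Markers of lung epithelium, T cells and pericytes did not all move one way. Of 12 epithelial markers 7 rose (Sftpc, Sftpb, Ager, Nkx2-1, Krt8, Krt18 and Cldn18) and 2 fell, where 9.76% and 3.9% of all tested genes did. Epcam fell from 4378 ± 452 to 1426 ± 467 (limma adjusted p = 0.00135) and Krt19 from 22717 ± 4351 to 10009 ± 3638 (0.0133). In saline these 2 and Cdh1 (1894 ± 324) stood far above Sftpc (41.5 ± 4.57), Krt8 (14.3 ± 12.4) and Nkx2-1 (1.63 ± 2.83). The cells that gave Epcam, Krt19 and Cdh1 were not tested. The sum of all 12 was 24753, 31940 and 31175 in saline and 19289, 13953 and 12490 after bleomycin. Without Epcam, Krt19, Cdh1 and Scgb1a1, left out after their values were seen, it was 201, 140.2 and 195 in saline and 967, 1862 and 2293 after bleomycin. Col4a1 and Col4a2 had the same order of the bleomycin libraries. That order is not particular to epithelial markers. It also held for the sums of monocyte-derived macrophage markers, T cell markers without Cd2 and fibroblast markers without Acta2.

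Of 8 T cell markers 7 rose, 5 of them at 10 or more in bleomycin libraries only, where 9.76% of all tested genes rose. Cd2 fell from 13835 ± 1502 to 8382 ± 2024 (limma adjusted p = 0.0229). In saline Cd2 stood far above Cd3e (1.33 ± 1.49) and Trac (6.55 ± 1.22), and the cells it came from were not tested. The sum of the 8 was 12848, 13162 and 15596 in saline and 10910, 7954 and 7719 after bleomycin, and without Cd2 it was 40.2, 23.9 and 37.1 in saline and 199, 559 and 677 after bleomycin. The adjusted p was 0.0508 to 0.0628 for Krt19 and 0.0531 to 0.119 for Cd2 when saline replicate 2, saline replicate 3, bleomycin replicate 2 or bleomycin replicate 5 was left out. Of 7 pericyte and smooth muscle markers 2 could be tested and both rose, beside the same 9.76%. Cspg4 went from 246 ± 111 to 1003 ± 188 (limma adjusted p = 0.00411). In saline Cspg4 stood far above the other pericyte and smooth muscle markers, and the cells it came from were not tested. Des went from 3 reads to 63 over the groups, where only bleomycin libraries reached 10 (limma adjusted p 0.00888, and 0.0541 without bleomycin replicate 5 with the tested genes kept). The groups overlapped for the other 5, among them Rgs5 with 6 reads in saline and 3 after bleomycin and Actg2 with 4 and 0.

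All 12 markers of monocyte-derived macrophages rose, where 9.76% of all tested genes rose. Their sum was 34932 to 60737 in saline and 204291 to 410314 after bleomycin, again lowest in bleomycin replicate 1. Of 10 endothelial markers 4 had every bleomycin value above every saline value, against 14.5% of all genes. These were Vwf, at 2232 ± 123 and 2840.4 ± 167 (limma adjusted p = 0.0675), and Cdh5, Kdr and Tie1, with 5, 0 and 0 reads in saline and 46, 28 and 8 after bleomycin. In saline Vwf stood far above the rest of the list, and the cells it came from were not tested. The other 6 endothelial markers, Cldn5 and Tek among them, had at most 4 reads over either group. The part of these cells in the chain values was not tested.

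**Figure D5:**
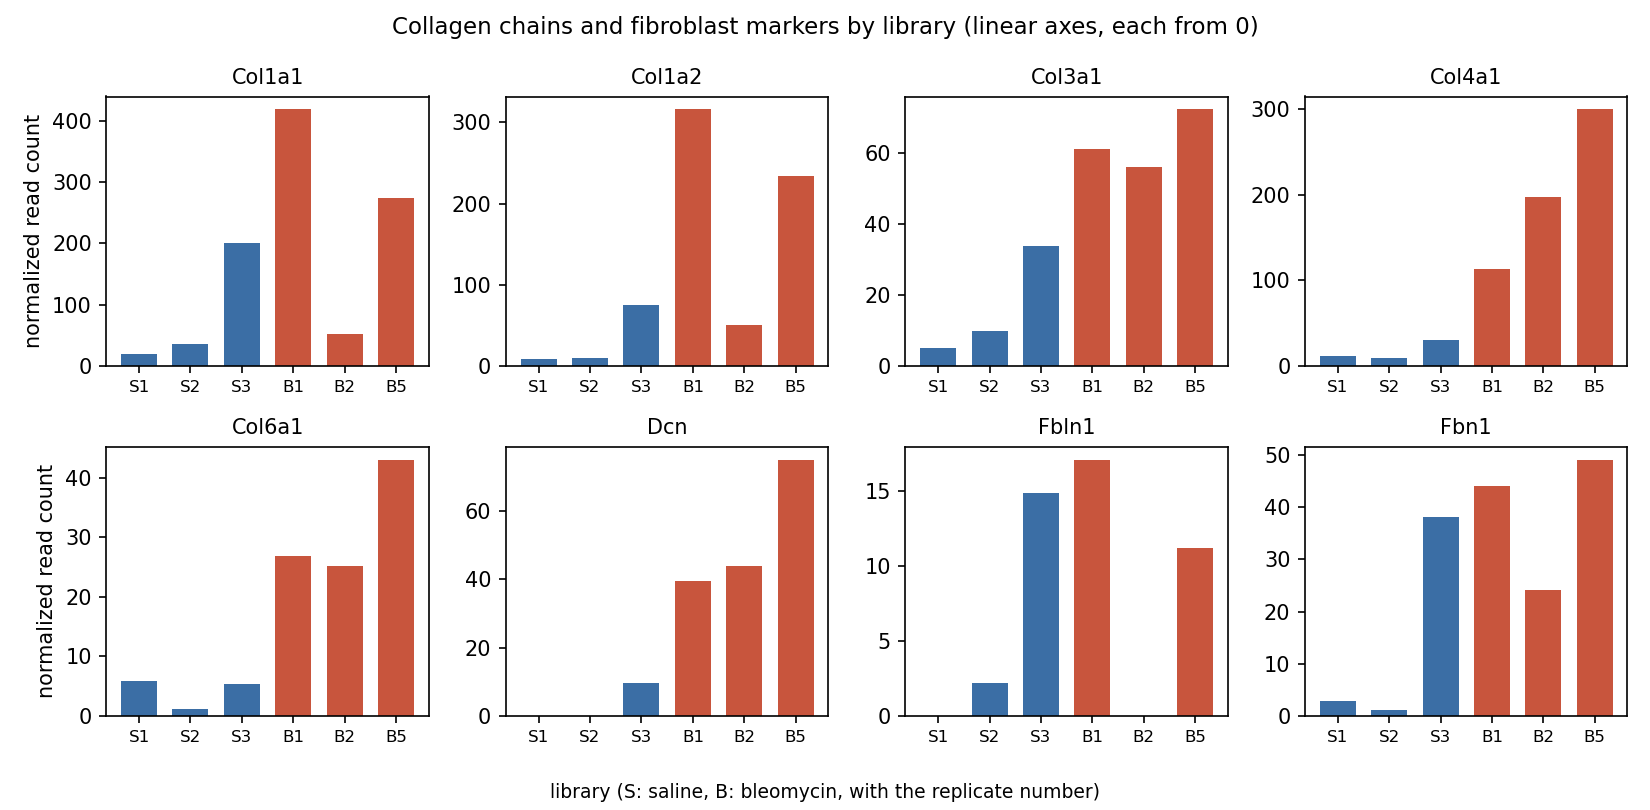
Normalized read counts of 5 collagen chains and of the fibroblast genes Dcn, Fbln1 and Fbn1 in each library, as bars on linear axes from 0 (S, saline; B, bleomycin, with the replicate number). Saline replicate 3 exceeds bleomycin replicate 2 for Col1a1, Col1a2, Fbln1 and Fbn1, whereas for Col3a1, Col4a1, Col6a1 and Dcn every bleomycin bar exceeds every saline bar.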

How the data were processed

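RNA was sequenced from 6 libraries of adherent lavage cells, grouped by the treatment in the labels. The submitters' processing notes name the aligner STAR 2.5.2b, the counter HTSeq 0.6.0, DESeq2, bcl2fastq 2.18.0.12 and build mm10. What each did, the annotation release and the strand setting are not given in these sources. The values deposited by the authors are a normalized signal: dividing each library by the value of 1 read gave whole reads for 100% of values (within 0.05 of a read), so they are read counts over 1 size factor per library. Totals were 27654799 to 37147983 reads, and 3 reads gave a value of 2.59 to 3.3.

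Genes at 10 or more in at least 3 libraries were tested with limma 3.58.1 (R 4.3.3) on log2(value + 1), with an intensity trend, two-sided, no covariate, and Benjamini-Hochberg adjustment over all 13512 genes. For low genes, fold changes on this scale can lie below or above the ratio of scaled reads or of group means. The fitted fold was 14 for Col5a1, whose scaled ratio was 37.6, and 4.89 for Col3a1, whose ratio of means was 3.9. Where a group had 0 reads, a fold is a bound with the group set to 3 reads in total, and with 1 to 3 reads a ratio is given with its exact 95% counting interval. The fit was tested on simulated counts. Symbols were found for 22873 genes, and positions and transcript lengths come from GENCODE M21 (GRCm38). Its 5 other chain symbols were not analysed here. Symbols without a matching promoter window are named only.

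Members and lists were chosen with earlier results of these data known. Named were all tested chains, untested chains reaching 10 in any library, and of each other list up to 5 called genes with the smallest p and up to 3 others of highest level. Values had been seen when Col4a6, Col17a1, Mmp14, Ctsk, the markers and the printed sequences were picked, and genes under the rule that added nothing are given in counts. Other settings tried were TMM and quantile scaling, pseudocounts of 0.5 and 5, a minimum of 50 or no filter, robust variances, no trend, recovered reads in edgeR 4.0.16 and in DESeq2 1.42.0, a replicate number block, and each library left out in turn.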

Additional observations from a re-analysis of the deposited data

How the results depend on the processing

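The fall of Col15a1 and the rise of Col4a1 kept their direction and call in all 20 alternatives. Of the 8 chains called higher, 8 were called by DESeq2, which added Col5a2, and 6 by edgeR. The number called higher was 2 with a minimum of 50 (where 4 of the 8 could not be tested), 5 with quantile normalization and 5 with no intensity trend. Leaving out 1 library gave 1 to 10 chains higher, from 1 without bleomycin replicate 5 to 10 without saline replicate 3. Without a bleomycin library Col5a1, Col6a1 and Col12a1 could not be tested. With the genes tested in all 6 libraries kept, an alternative chosen after seeing the data, leaving out bleomycin replicates 1, 2 and 5 gave 5, 5 and 3. With no filter 12 were called higher, including Col4a3, Col4a5, Col16a1 and Col24a1.

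Over all genes, leaving out 1 library gave 502 to 1173 called higher and 162 to 576 called lower. With the genes kept, 787 and 768 were higher and 212 and 183 lower without bleomycin replicates 2 and 5. Called higher were 1 hydroxylation, folding and export gene with no intensity trend, 0 to 3 when a library was left out, and 0 without bleomycin replicate 2 or 5 with the genes kept. Of the cleavage and cross-linking genes 2 were higher with no filter, 0 with a minimum of 50 and 0 to 1 when a library was left out (0 without bleomycin replicate 2 with the genes kept), and 0 to 1 were lower (0 without bleomycin replicate 2 or 5 with the genes kept). Of the receptors 0 were higher with a minimum of 50 and 0 to 1 when a library was left out. Of the fibroblast markers 5 were higher with no filter, 0 with a minimum of 50 and 0 to 3 when a library was left out (1 without bleomycin replicate 5 with the genes kept).

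Changes that turned sign failed the test in the alternative. With quantile normalization Lyz2 was at 0, Col9a3 was at -0.28 and Fbln1 at -0.38. Leaving out 1 library gave -0.11 to 0.068 for Col11a2, -0.14 to 0.0799 for Col20a1, -0.11 to 0.315 for Col9a3, -0.073 to 0.094 for Colgalt1, -0.21 to 0.0043 for Mrc1 and -0.23 to 2.01 for Fbln1 (in the 3 cases that could test it). With the genes kept, Col11a2 was at 0.068 without bleomycin replicate 5, and Col20a1 at 0.0087 and Fbln1 at -0.0793 without bleomycin replicate 1. The cause of these changes was not tested.

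The groups share only replicate numbers 1 and 2, and deviations from the group means correlated at -0.20 for number 1 and 0.02 for number 2, so the numbers were not taken to pair libraries. The replicate block leaves only replicates 1 and 2 to inform the comparison. It called 11 chains higher, with Col1a1, Col1a2, Col5a2, Col6a2 and Col27a1 added and Col5a1 and Col14a1 lost, 194 genes lower over the table, and 0 cleavage and cross-linking genes lower. The block put Col11a2 at 0.069, Col9a3 at -0.0718 and Colgalt1 at -0.11. Depth limits the chains near 0 in saline: Col5a1 and Col12a1 had 2 reads each over that group.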
